A study of Mus musculus with 8 samples.

Results

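The chemokine genes Ccl2, Ccl3, Ccl4, Ccl5, Ccl12, Cxcl9, Cxcl10, Cxcl12, Cxcl13 and Cxcl16, were followed across the cell types of the aged mouse brain. They are 10 of the 17001 genes counted in both tables of all cell types and were taken by name. For each gene it was asked which cell type held its transcripts, and whether its level in that cell type differed between gray and white matter or between wild-type and Rag1-/- mice. The data are droplet-based single-cell RNA-seq of 8 libraries of live-sorted cells from 24-month-old mice. Tissue was dissociated with papain in the presence of actinomycin D, an inhibitor of transcription, and the tissue of several mice was combined in some libraries. Wild-type mice (labelled C57BL/6, and C57BL/6J in the study's methods) gave 2 libraries of gray matter, taken from the frontal cortex, and 2 libraries of white matter, dissected from the corpus callosum, the optic tract and the medial lemniscus. Rag1-/- mice gave 1 gray matter and 3 white matter libraries. Their strain is labelled NOD.129S7(B6)-Rag-1tm1Mom/J, whereas the study's methods describe a Rag1 mutation on a C57BL/6J background. These mice cannot rearrange antigen receptor genes and so lack mature T and B cells. Genotype coincides with the experiment, the Cell Ranger version given in the study's methods and the list of counted genes, so that a genotype effect and an experiment effect cannot be told apart.

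Chemokines are small secreted proteins that direct the migration of leukocytes by binding G protein-coupled receptors. CCL2 and CCL12 attract monocytes through CCR2, CCL3, CCL4 and CCL5 attract monocytes and T cells, and CXCL9 and CXCL10 are interferon-induced ligands of CXCR3, a receptor of activated T and NK cells. CXCL16 binds CXCR6, CXCL13 binds CXCR5 of B cells, and CXCL12, a constitutive product of vessels and stroma, binds CXCR4 and ACKR3. In the brain, Ccl3 and Ccl4 are known as transcripts of activated microglia.

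The libraries held 584 to 7631 cells and 4645054 to 57899352 unique molecular identifiers (UMIs), with medians of 6435 to 10375 UMIs per cell. Cells were assigned to 16 classes by lists of marker genes that hold no chemokine, a cell needing UMIs of at least 3 markers of a list (2 for T, NK and B cells), and oligodendrocytes were the cells of the deposited oligodendrocyte table. The gate left 984 cells without a class. Libraries gave 196 to 3879 microglia, 284 to 4106 oligodendrocytes and 3 to 41 macrophages. T cells numbered 23, 52 and 322 in wild-type gray matter library 2 and white matter libraries 1 and 2, and NK cells 14, 69, 28 and 61 in Rag1-/- gray matter library 1 and white matter libraries 1 to 3. Between 0 and 15 cell barcodes were shared by any 2 of the 8 libraries. As a check of the genotype, the T-cell gate took 2, 28, 1 and 2 cells from the Rag1-/- libraries in the same order. In Rag1-/- white matter library 1, these 28 cells passed the gate with 131 UMIs of Cd3e, 207 of Cd3g and 25 of Cd3d, which encode CD3 chains, and 98 of Trbc2, a constant gene of the T cell receptor beta chain, but 0 UMIs of Trac and Cd8b1. They are kept apart from the T cells of wild-type libraries below and given no name. The B-cell gate took 3, 8, 2 and 0 cells from the Rag1-/- libraries in the same order. It took 0 and 1 cells from wild-type gray matter libraries 1 and 2, and 6 and 2 from wild-type white matter libraries 1 and 2. Levels are given as CPM, the UMIs of a gene per 1e6 UMIs summed over all cells of a class in a library, and a class was used in a library with at least 10 of its cells. Since UMIs were not scaled by gene length, CPM of different genes are not compared.

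The members lie on 3 chromosomes of the GRCm38 build. On chromosome 11, Ccl2 (chr11:82035571-82037453, plus strand) and Ccl12 (chr11:82101845-82103400, plus strand) are separated by 64391 bp, and Ccl3 (chr11:83647844-83649355, minus strand) and Ccl4 (chr11:83662584-83664683, plus strand) by 13228 bp. Ccl5 (chr11:83525778-83530518, minus strand) and Cxcl16 (chr11:70453983-70459984, minus strand) are on the same chromosome. Chromosome 5 carries Cxcl9 (chr5:92321347-92328079, minus strand), Cxcl10 (chr5:92346638-92348889, minus strand, 18558 bp from Cxcl9) and Cxcl13 (chr5:95956951-95961068, plus strand), and chromosome 6 carries Cxcl12 (chr6:117168535-117181367, plus strand). No stretch of 50 bases is shared with another gene by 9 of the members. Cxcl9 shares such a stretch with 72 other genes, so its counts are uncertain.

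The RefSeq promoter table (GRCm38.p6) had an entry for 6 of the 10 genes. The 250 bases before the start of Cxcl10, Ccl12 and Ccl3 are shown because the levels of these 3 genes by microglia cluster, given further on, are the clearest contrast among the members, with Cxcl10 and Ccl12 highest in an interferon-responsive cluster and Ccl3 in a white matter-associated one. All 3 are written 5′ to 3′ on the strand of the gene, at chr5:92348890-92349139 (minus), chr11:82101595-82101844 (plus) and chr11:83649379-83649628 (minus). Capitals mark matches to GAAANNGAAA, the core of the interferon-stimulated response element, and GGGANNTTCC, a kappa B motif.
Cxcl10: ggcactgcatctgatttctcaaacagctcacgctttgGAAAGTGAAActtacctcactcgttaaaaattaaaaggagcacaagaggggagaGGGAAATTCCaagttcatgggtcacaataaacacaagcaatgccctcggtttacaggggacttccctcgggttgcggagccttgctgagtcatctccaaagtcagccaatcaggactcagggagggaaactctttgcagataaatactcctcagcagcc
Ccl12: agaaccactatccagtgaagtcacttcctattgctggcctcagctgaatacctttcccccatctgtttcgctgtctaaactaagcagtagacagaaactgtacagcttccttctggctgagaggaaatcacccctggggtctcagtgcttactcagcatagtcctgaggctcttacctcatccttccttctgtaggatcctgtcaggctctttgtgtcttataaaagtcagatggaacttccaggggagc
Ccl3: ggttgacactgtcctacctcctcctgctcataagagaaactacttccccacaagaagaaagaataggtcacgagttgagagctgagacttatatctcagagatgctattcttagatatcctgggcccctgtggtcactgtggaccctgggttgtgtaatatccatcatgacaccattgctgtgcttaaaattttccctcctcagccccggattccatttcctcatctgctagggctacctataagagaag
Both strands were searched for exact matches to each pattern, so variants of a motif were not counted. The Cxcl10 promoter held GAAANNGAAA 213 to 204 bases before the start and GGGANNTTCC 159 to 150 bases before it. These motifs occur in 2.98% and 1.21% of the 32851 promoters of the table. It also held the AP-1 motif TGANTCA 74 to 68 bases before the start, which 6.75% of promoters hold and which overlaps neither of the others. The gamma-activated motif TTCNNNGAA, present in 7.02% of promoters, was in none of the 6, and the other 5 members held none of the 4 motifs. A match describes these letters and is not evidence of binding.

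Microglia held most UMIs of 8 of the 10 genes. Over all libraries they accounted for 12425 of 13092 UMIs of Ccl3 (94.9%), 16106 of 17658 of Ccl4 (91.2%), 14167 of 14756 of Ccl12 (96.0%) and 9524 of 10111 of Cxcl16 (94.2%). Their share was 93.0% of Ccl2, 95.7% of Cxcl13 (3003 of 3137 UMIs), 90.8% of Cxcl10 (1592 of 1753) and 95.1% of Cxcl9 (116 of 122). Single libraries departed from these sums, and in wild-type gray matter library 2 cells without a class held 30 of the 36 Ccl2 UMIs, 29 of them in 1 cell, and microglia 4. In wild-type white matter library 1, 3 macrophages held 46 of 185 Cxcl13 UMIs (24.9%) and microglia 127. The exceptions were Ccl5, which lay with T cells in wild-type and NK cells in Rag1-/- libraries, and Cxcl12, of which endothelial cells held 1469 of 1804 UMIs (81.4%). These shares depend on how many cells of each type a library held. Read per UMI instead, other classes matched or exceeded microglia for Ccl2, Ccl3, Ccl4, Ccl12, Cxcl10, Cxcl13 and Cxcl16 in some libraries. They included T cells, NK cells, macrophages, neutrophils and astrocytes, as given further on. In a sum over a class, fewer transcribing cells and less RNA per transcribing cell cannot be told apart, and the values by cluster and by cell address this in part.

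**Figure D1:**
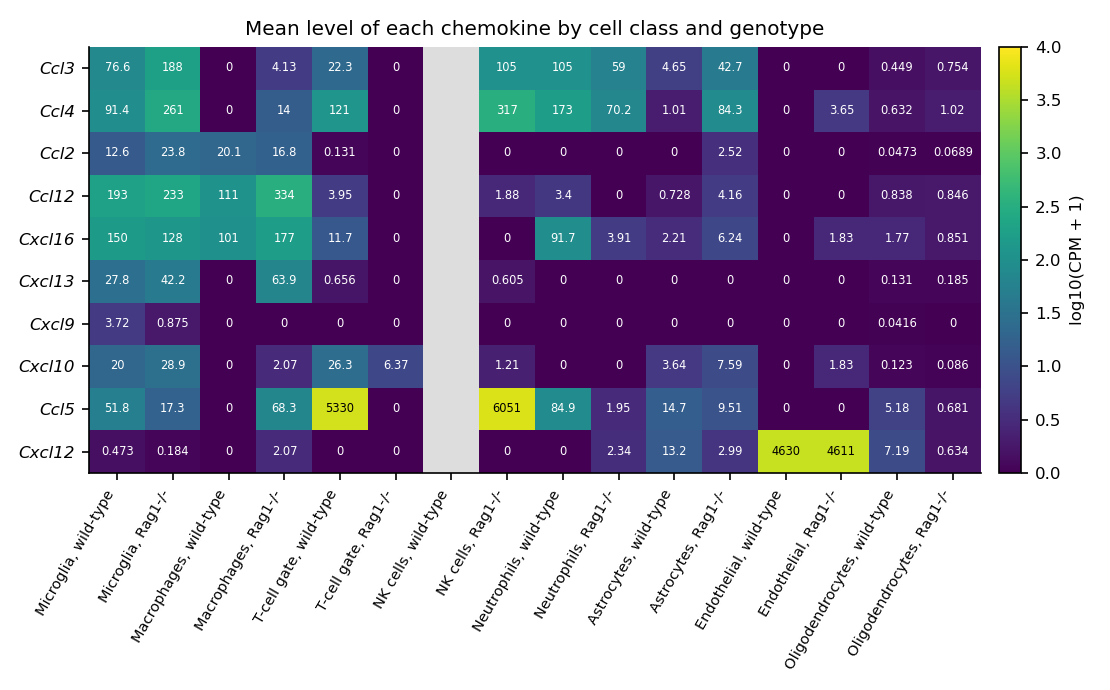
Mean level (CPM, colour on a log scale) of the 10 chemokine genes by cell class and genotype over libraries with at least 10 cells of the class, with gray where no library qualified. Ccl5 stands out in T cells and NK cells and Cxcl12 in endothelial cells, while microglia have UMIs of the other 8 genes and are not the class with the highest level of each.

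Ccl3 and Ccl4, which encode the macrophage inflammatory proteins, had higher levels in microglia of white matter than of gray matter in both genotypes. Ccl3 reached 26.4 and 34.9 CPM in wild-type gray matter libraries 1 and 2 and 104 and 141 CPM in wild-type white matter libraries 1 and 2. In Rag1-/- mice it was 19.2 CPM in the gray matter library and 298, 218 and 217 CPM in white matter libraries 1 to 3. All 5 white matter libraries thus lay above all 3 gray matter libraries. The fitted difference was 2.22 ± 0.23 (log2, SE), a 4.66-fold rise, in wild-type (adjusted p = 0.0014, edgeR's quasi-likelihood test with Benjamini-Hochberg adjustment) and 3.85 ± 0.30, or 14.4-fold, in Rag1-/- mice (adjusted p = 0.0014, edgeR). Ccl4 followed the same order, with 32.6 and 60.1 CPM in wild-type gray matter and 111 and 162 CPM in wild-type white matter. It was 14.6 CPM in Rag1-/- gray matter and 369, 348 and 312 CPM in the 3 Rag1-/- white matter libraries. The rise was 1.75 ± 0.26, or 3.37-fold, in wild-type (adjusted p = 0.0086, edgeR) and 4.73 ± 0.38, or 26.6-fold, in Rag1-/- mice (adjusted p = 0.0014, edgeR). In wild-type gray matter library 2, 241 of the 300 Ccl4 UMIs and 106 of the 174 Ccl3 UMIs came from 1 cell. When the microglia with most UMIs of the gene was left out of each library, an alternative added after the data were seen, the wild-type rise was 3.54 for Ccl4 and 3.01 for Ccl3 (adjusted p = 0.00055 and 0.0030, edgeR), and the Rag1-/- rise was 4.70 and 3.74.

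Ccl2 and Ccl12, the CCR2 ligands, differed in how firmly the tissue difference was measured. Ccl12 was 99.3 and 86.8 CPM in wild-type gray and 396 and 191 CPM in wild-type white matter microglia, a rise of 1.95 ± 0.38 (adjusted p = 0.024, edgeR). In Rag1-/- mice it was 163 CPM in gray and 234, 333 and 201 CPM in white matter, a difference of 0.83 ± 0.43 that did not pass (adjusted p = 0.48, edgeR). Ccl2 was scarcer, with 6.21 and 0.802 CPM (8 and 4 UMIs) in wild-type gray matter and 27.0 and 16.6 CPM in wild-type white matter. The Rag1-/- libraries had 3.98 CPM in gray and 19.97, 52.3 and 18.7 CPM in white matter. For Ccl2, too, no white matter library fell below a gray matter library, but the fitted differences of 3.54 ± 0.90 in wild-type (adjusted p = 0.059, edgeR) and 3.07 ± 0.82 in Rag1-/- mice (adjusted p = 0.17, edgeR) did not pass. With the labelled batch as a block the wild-type value for Ccl2 was 3.46 and passed (adjusted p = 0.031, edgeR). The alternatives that called it, of which the block was not the only one, gave 3.46 to 4.01, and most did not call it.

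Cxcl16, made as a membrane-bound and a soluble form, was the most evenly spread of the members. Microglia had 56.6 and 63.3 CPM in wild-type gray and 289 and 189 CPM in wild-type white matter, a 4.77-fold rise of 2.25 ± 0.27 (adjusted p = 0.0030, edgeR). The Rag1-/- gray matter library, at 60.6 CPM, lay between the wild-type gray matter libraries. Rag1-/- white matter microglia had 179, 143 and 128 CPM, below both wild-type white matter libraries. The tissue difference in Rag1-/- mice was 1.49 ± 0.31 and did not pass (adjusted p = 0.078, edgeR), whereas with the batch as a block it was 1.74 and passed (adjusted p = 0.029, edgeR). The alternatives that called it, of which the block was not the only one, gave 1.48 to 1.74, and most did not call it.

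In sums over all microglia, the CXCR5 ligand Cxcl13 was found almost only in white matter. Some clusters of Rag1-/- gray matter microglia also had it, as given further on. Wild-type gray matter microglia had 0 UMIs in both libraries, and white matter microglia had 127 and 299 UMIs, or 70.0 and 41.2 CPM. Against a floor of 3 UMIs over both gray matter libraries, Cxcl13 was at least 98.4-fold higher in white matter (adjusted p = 0.0061, edgeR). Rag1-/- microglia had 2.25 CPM (26 UMIs) in gray and 67.1, 25.5 and 74.0 CPM in white matter, a rise of 4.81 ± 0.78 (adjusted p = 0.035, edgeR). This last call was lost when the microglia with the most Cxcl13 UMIs of each library was left out (5.11, adjusted p = 0.085, edgeR), an alternative added after the data were seen, and without wild-type gray matter library 1 or 2 or Rag1-/- white matter library 1 (adjusted p = 0.067, 0.065 and 0.096, edgeR).

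The CXCR3 ligands were carried by few microglia. Cxcl10 had 0 and 4 UMIs in wild-type gray matter microglia and 79 and 259 UMIs, or 43.5 and 35.7 CPM, in white matter. The rise was 6.19 ± 1.15 (adjusted p = 0.021, edgeR) and rests on those 4 UMIs. In Rag1-/- microglia Cxcl10 was 30.2 CPM in gray matter and 20.4, 55.2 and 9.89 CPM in white matter, so that the gray matter library lay inside the range of white matter (0.050 ± 0.70, adjusted p = 0.99, edgeR). Cxcl9 was seen in microglia of 2 libraries alone, with 27 UMIs (14.9 CPM) in wild-type white matter library 1 and 89 UMIs (3.50 CPM) in Rag1-/- white matter library 1. Ccl5 overlapped between the tissues in microglia, with 62.1 and 3.01 CPM in wild-type gray, 81.6 and 60.5 CPM in wild-type white, 3.98 CPM in Rag1-/- gray and 35.7, 19.0 and 10.7 CPM in Rag1-/- white matter. Within each of the 3 labelled batches that held both tissues, white matter was above gray. Its differences of 1.73 ± 1.00 in wild-type (adjusted p = 0.36, edgeR) and 2.66 ± 1.26 in Rag1-/- mice (adjusted p = 0.43, edgeR) did not pass. In wild-type gray matter library 1, 73 of the 80 Ccl5 UMIs of microglia came from 1 cell, and without the top cell of each library the wild-type difference was 4.49 (adjusted p = 0.023, edgeR).

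**Figure D2:**
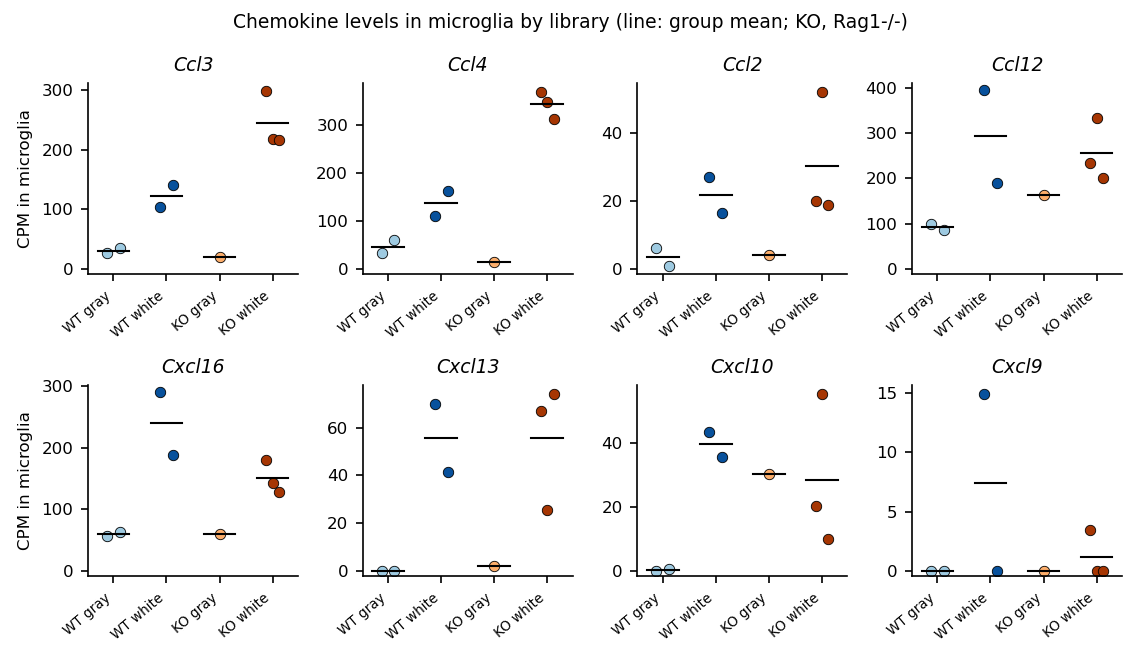
Level (CPM) of 8 chemokine genes in the microglia of each library, with a point per library, the 4 groups of tissue and genotype side by side and a line at the group mean. For Ccl3, Ccl4, Ccl2, Ccl12, Cxcl13 and Cxcl16, the 5 white matter libraries lie above the 3 gray matter libraries, whereas for Cxcl10 the Rag1-/- gray matter library lies among the white matter libraries.

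In counts, 9 of the 10 members were tested in microglia, since Cxcl12 had at most 6 UMIs in any library and was removed by the filter on low counts. In wild-type mice 6 were higher in white matter and 0 lower, where 3.43% of all 12649 genes tested were called higher and 1.73% lower. The median difference of the 9 was 2.25, against -0.011 over all genes. Without wild-type gray matter library 1, Ccl3 and Cxcl13 alone were still called, with an adjusted p of 0.054 for Ccl4, 0.155 for Ccl12, 0.127 for Cxcl10 and 0.058 for Cxcl16 (edgeR). Without wild-type gray matter library 2, Ccl3 and Ccl4 alone were, with 0.201 for Ccl12, 0.210 for Cxcl10, 0.109 for Cxcl13 and 0.070 for Cxcl16 (edgeR). In Rag1-/- mice 3 members (Ccl3, Ccl4 and Cxcl13) were higher in white matter and 0 lower, where 0.719% of genes were called higher and 0.111% lower, and the median was 3.07 against 0.012. That comparison rests on a single gray matter library, which was assumed to vary like the others.

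Between genotypes, where a difference not called is not shown to be absent, Ccl4 alone among the 9 tested was called in white matter microglia. The 3 Rag1-/- libraries lay above both wild-type libraries, at 343 ± 28.9 against 137 ± 36.5 CPM (SD, n = 3 and 2). The difference was 1.34 ± 0.23, or 2.54-fold (adjusted p = 0.033, edgeR), where 0.64% of all genes were called higher and 0.119% lower. The call was lost without wild-type white matter library 1 (1.17, adjusted p = 0.153, edgeR) or Rag1-/- white matter library 1, 2 or 3 (adjusted p = 0.109, 0.098 and 0.057, edgeR). Ccl3 was 244 ± 46.5 against 122 ± 25.9 CPM, a difference of 1.01 ± 0.19 (adjusted p = 0.055, edgeR) that passed with the batch as a block (1.08, adjusted p = 0.0018, edgeR). Cxcl16 had a difference of -0.66 ± 0.22 (adjusted p = 0.42, edgeR), which became -1.04 without wild-type white matter library 2 (adjusted p = 0.045, edgeR). For Ccl2, Ccl5, Ccl12, Cxcl9, Cxcl10 and Cxcl13 the differences of 0.52, -1.65, -0.20, -2.24, -0.49 and 0.060 had an adjusted p of at least 0.66 (edgeR). Since this comparison and those of tissue share libraries, they are not independent of each other. In the fits with the batch as a block, 8.65% of all genes were called between the wild-type tissues, 1.33% between the Rag1-/- tissues and 1.26% between genotypes.

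The tissue effect itself was then compared between genotypes. No gene of 12649 was called in edgeR (0%), where 180 passed at an unadjusted p under 0.05, and DESeq2 called 1 (0.00791%). The tissue effect on Ccl4 was larger in Rag1-/- mice by 2.98 ± 0.41, with an adjusted p of 0.57 in edgeR and 4.1e-11 in DESeq2. Without the top cell of each library, an alternative added after the data were seen, the value for Ccl4 fell to 1.17 and that for Ccl3 to 0.74 (adjusted p = 1.00 for both, edgeR). For Ccl3 the difference of the effects was 1.63 ± 0.34 and for Cxcl10 -6.14 ± 1.38 (adjusted p = 1.00 for both, edgeR).

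Values of other cells and of handling were read beside these levels. The summed level of 4 neutrophil markers in microglia was 155 to 423 CPM in 7 libraries but 2773 CPM in wild-type white matter library 1, and that of the T-cell markers was 50.1 CPM there against 0.173 to 16.1 CPM elsewhere. Their part in the levels of that library was not tested. The summed level of 18 early-response genes, which dissociation is known to induce, was 1085 and 906 CPM in wild-type gray, 969 and 1031 in wild-type white, 917 in Rag1-/- gray and 1046, 773 and 861 CPM in Rag1-/- white matter microglia, so that the tissues overlapped. The 10 microglia markers summed to 23957 to 25200 CPM in gray and 14468 to 18535 CPM in white matter microglia.

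The deposited cluster names of 7421 Rag1-/- microglia place the chemokines further. White matter-associated microglia (WAM), a cluster described for aged white matter, made up 27 of 1732 named microglia (1.56%) in gray matter and 799, 121 and 233 cells (22.1%, 17.1% and 17.1%) in white matter libraries 1 to 3. Microglia named Homeostatic1 made up 94.3% in gray and 21.7%, 35.1% and 42.3% in white matter. Interferon-responsive microglia (IRM) numbered 15, 37, 13 and 9 cells, and the levels of the last library are printed although it is under 10 cells. Since the chemokines took part in the clustering, their levels by cluster are descriptions with no test.

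Ccl3 and Ccl4 were transcripts of WAM. WAM had 1082, 1049 and 927 CPM of Ccl3 in the white matter libraries and held 91.8%, 90.2% and 85.1% of the Ccl3 UMIs of named microglia. For Ccl4 they had 1371, 1674 and 1519 CPM and 94.4%, 87.8% and 91.4% of the UMIs. Homeostatic1 microglia of the same libraries ranged from 9.20 to 39.7 CPM of Ccl3. The 27 gray matter WAM had 273 CPM of Ccl3 and 432 CPM of Ccl4, below the WAM of all 3 white matter libraries. In these libraries WAM of the 2 tissues thus differed both in number and in the level of these genes. The gray matter side is the 27 cells of a single library, and no test was made. The early-response genes summed to 1285 CPM in gray matter WAM and to 1457, 1122 and 1023 CPM in white matter WAM. In each library this was the highest sum of all clusters. Homeostatic1 microglia had 902 CPM in gray and 937, 768 and 841 CPM in white matter. The part of these genes in the Ccl3 and Ccl4 levels of WAM was not tested.

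Ccl2 and Cxcl16 were also highest among the large clusters in WAM of white matter. Ccl2 reached 53.7, 194 and 53.0 CPM there, 67.5%, 77.1% and 63.3% of the UMIs of named microglia, and 19.8 CPM in gray matter WAM. The small IRM cluster was above WAM in Ccl2 in every library, with 285 CPM in gray and 132, 470 and 248 CPM in white matter. Cxcl16 was 354, 338 and 343 CPM in white and 129 CPM in gray matter WAM, against 149, 128 and 107 CPM in Homeostatic2 and 58.1 to 63.0 CPM in Homeostatic1 microglia of white matter. A smaller part of Cxcl16 than of Ccl3 and Ccl4 lay in WAM, which held 51.5%, 49.2% and 54.4% of its UMIs.

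Cxcl13 divided the 2 clusters named homeostatic. Homeostatic2 microglia had 72.3, 24.2 and 152 CPM of Cxcl13 in white matter and 81.9 CPM in gray matter, and held 51.0%, 30.3% and 59.9% of its UMIs in white and 10 of 25 UMIs in gray matter. Homeostatic1 microglia had 0 to 1.02 CPM in white and 0.305 CPM in gray matter. WAM had 109, 19.9 and 139 CPM in white and 9.92 CPM in gray matter. In library 2 both clusters were lowest. The small IRM cluster, described next, had 109 CPM in gray and 261, 667 and 13.1 CPM of Cxcl13 in white matter, the highest of all clusters in gray matter and in white matter libraries 1 and 2. Its gray matter level came from 15 cells and that of library 3 from 9, so these ranks are uncertain.

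Cxcl10 was a transcript of the small IRM cluster. IRM had 3589 CPM in gray matter and 1426, 2649 and 811 CPM in white matter, and their 15, 37, 13 and 9 cells held 94.8%, 75.0%, 96.2% and 66.0% of the Cxcl10 UMIs of named microglia. Ccl12 was also highest there, at 5548 CPM in gray and 2194, 6265 and 1373 CPM in white matter, but IRM held only 28.5%, 10.7%, 38.8% and 6.00% of its UMIs. Homeostatic2 microglia, with 254 CPM in gray and 225, 212 and 231 CPM in white matter, held 1.74% of the Ccl12 UMIs in gray and 45.4%, 20.3% and 35.2% in white matter. WAM had 427 CPM in gray and 318, 414 and 284 CPM in white matter, and Homeostatic1 microglia had 117 CPM in gray and 108 to 146 CPM in white matter. IRM of gray matter had 0 UMIs of Ccl4 and 32.8 CPM of Ccl3, whereas IRM of white matter had 753, 1944 and 1007 CPM of Ccl4 and 570, 385 and 458 CPM of Ccl3.

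**Figure D3:**
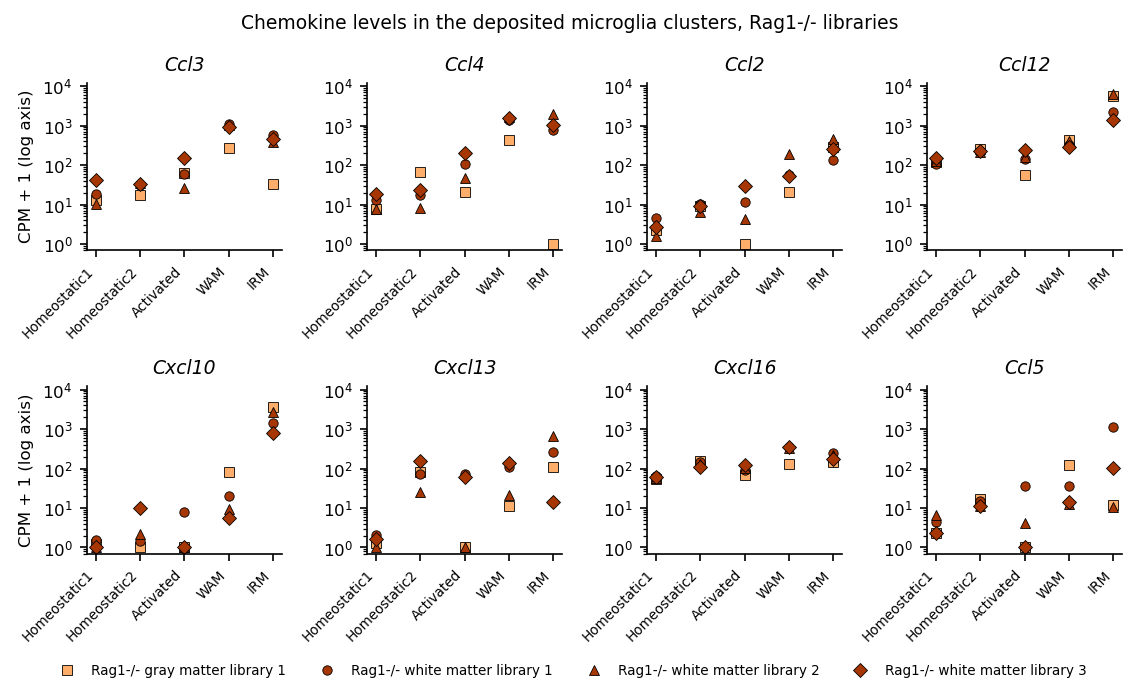
Level (CPM + 1, log axis) of 8 chemokine genes in the 5 deposited clusters of Rag1-/- microglia, with a point for each of the 4 libraries. Ccl3 and Ccl4 are high in WAM and in white matter IRM, Cxcl10 and Ccl12 are highest in IRM, and Cxcl13 separates Homeostatic2 from Homeostatic1 microglia.

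The members also differed in how many microglia carried their UMIs. In libraries with at least 50 UMIs of a gene in microglia, the 5 cells with most UMIs held a median of 8.58% of Cxcl16 (2.67% to 23.3% over 8 libraries) and 23.8% of Ccl12 (7.70% to 57.2%). For Ccl3 the median was 33.6% (24.6% to 73.6% over 7 libraries) and for Ccl4 43.7% (17.5% to 89.7%). Ccl2 had 53.6%, Cxcl13 65.3%, Ccl5 73.7% and Cxcl10 92.1% (77.2% to 99.0% over 6 libraries). Cxcl16 was thus spread over many cells in each library, while most Cxcl10 UMIs of a library lay in a handful of cells. These shares also depend on the number of cells, which ranged from 196 to 3879.

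**Figure D4:**
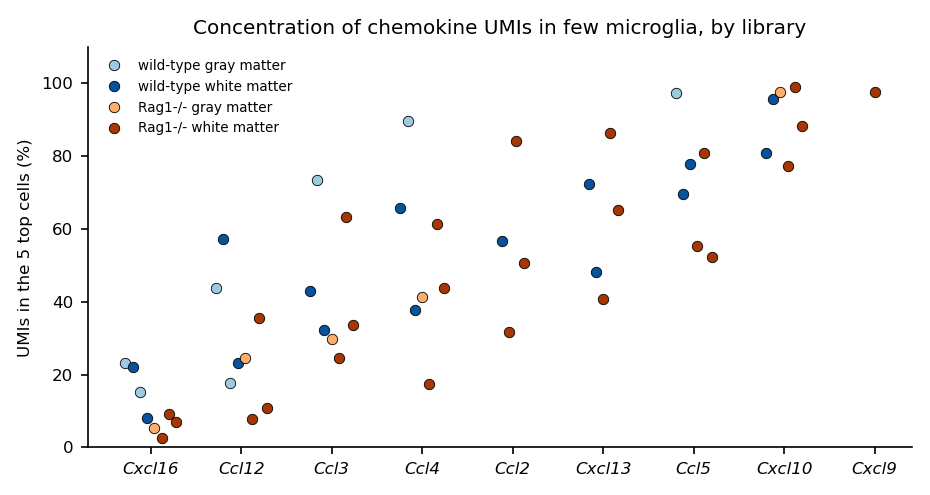
Percent of the UMIs of each chemokine gene held by the 5 microglia with most of them, with a point for each library that had at least 50 UMIs. Cxcl16 is lowest with a median of 8.58% and Cxcl10 is high in every library, with a median of 92.1%.

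Ccl3 and Ccl4 UMIs often occurred in the same microglia. Of the microglia with Ccl4 UMIs, 60.2%, 54.9% and 61.1% also had Ccl3 UMIs in the Rag1-/- white matter libraries, and 65.0% and 74.1% did in wild-type white matter. In gray matter 6 of 12 and 9 of 32 such cells did in wild-type and 20 of 77 (26.0%) in Rag1-/- mice. These shares move with depth and level, and no test was made.

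Ccl5 was the chemokine of lymphocytes. T cells had 4252, 6712 and 5026 CPM in wild-type gray matter library 2 and white matter libraries 1 and 2, and held 84.9%, 90.0% and 94.1% of the Ccl5 UMIs of those libraries (915, 2831 and 12765 UMIs). In Rag1-/- libraries NK cells took this place. They had 7328 CPM in gray matter and 4523, 7272 and 5080 CPM in white matter libraries 1 to 3, and held 85.1%, 63.0%, 92.0% and 73.8% of the UMIs. The ranges of T and NK cells overlapped. Microglia of the same libraries were at 3.01 to 81.6 CPM, and the 28 cells of Rag1-/- white matter library 1 that passed the T-cell gate without Trac had 0 UMIs of Ccl5. In that library microglia held 34.5% of the Ccl5 UMIs, and in white matter library 3 a single cell without a class held 465 UMIs. Among named Rag1-/- microglia, IRM had 10.9 CPM of Ccl5 in gray matter. In white matter libraries 1 and 2, those with at least 10 such cells, IRM had 1158 and 9.39 CPM. WAM had 119 CPM in gray and 11.3 to 34.6 CPM in white matter.

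**Figure D5:**
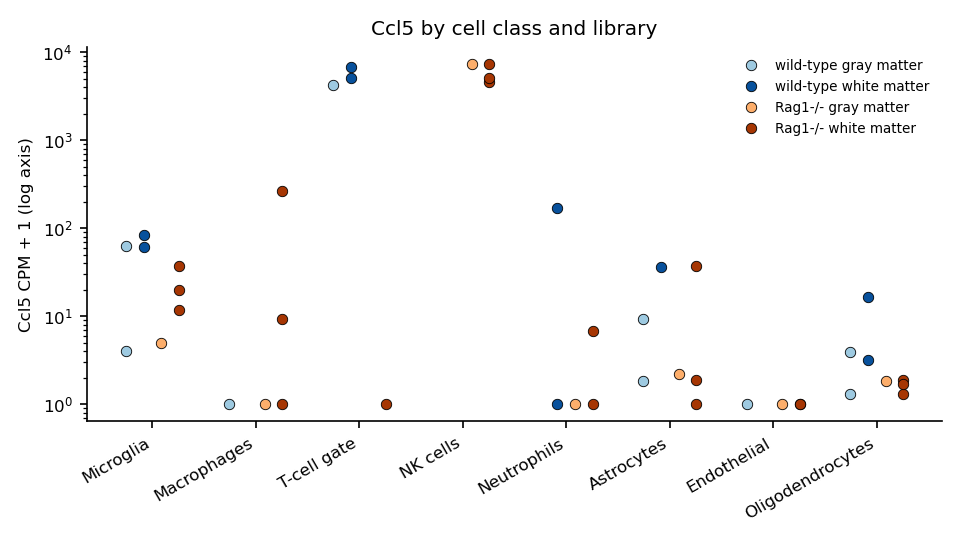
Level of Ccl5 (CPM + 1, log axis) by cell class, with a point for each library that had at least 10 cells of the class. T cells of wild-type libraries and NK cells of Rag1-/- libraries lie between 4252 and 7328 CPM, and microglia lie at 81.6 CPM or less.

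Lymphocytes also had Ccl4 and Ccl3. T cells had 88.3, 128 and 147 CPM of Ccl4, near the 60.1, 111 and 162 CPM of the microglia of the same 3 libraries, and held 5.83%, 15.6% and 22.6% of the Ccl4 UMIs there. NK cells had 512 CPM in gray and 167, 269 and 322 CPM in white matter, against 14.6, 369, 348 and 312 CPM in microglia. By level, NK cells were therefore above microglia in gray matter and white matter library 3 and below them in white matter libraries 1 and 2. Ccl3 was 23.2, 16.6 and 27.2 CPM in T cells and 190, 46.4, 125 and 58.1 CPM in NK cells. Of the NK cells with Ccl4 UMIs, 75 of 75 also had Ccl5 UMIs, and of the wild-type T cells 154 of 155, but most cells of both types carried Ccl5 (168 of 172 NK cells and 370 of 397 wild-type T cells). Among microglia with Ccl4 UMIs, 81 of 1030 (7.86%) had Ccl5 UMIs, against 3.92% of all microglia. Median depths were 4801 to 6675.5 UMIs in NK cells, 6570 to 8407 in wild-type T cells and 5408.5 to 8804 in microglia. T cells of wild-type white matter also held 20.4% and 21.4% of the Cxcl10 UMIs of their libraries (21 and 74 UMIs, 42 of the latter in 1 cell). Their Cxcl10 level was 49.8 and 29.1 CPM in white matter libraries 1 and 2, beside 43.5 and 35.7 CPM in microglia of the same libraries.

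Macrophages shared Ccl12 and Cxcl16 with microglia but not Ccl3 and Ccl4. Both classes were compared within the 5 libraries with at least 10 macrophages, wild-type gray matter library 2 and the 4 Rag1-/- libraries in the order used above. Ccl12 was 111, 207, 521, 212 and 395 CPM in macrophages, higher than in microglia in 4 of the 5 libraries, and Cxcl16 was 101, 148, 215, 212 and 132 CPM, higher in 5 of 5. The differences of 0.54 ± 0.22 (adjusted p = 0.12, edgeR, and 0.012 without Rag1-/- white matter library 2, where it was 0.79) and 0.62 ± 0.24 (adjusted p = 0.079, edgeR, and 0.039 with the size factors of DESeq2, where it was 0.69) did not pass. Ccl3 had 2 UMIs and Ccl4 5 UMIs over all 126 macrophages of these libraries. The 2 UMIs of Ccl3 lay in Rag1-/- white matter library 1 and came to 1.88% of the microglia level over these libraries (exact 95% counting interval 0.228% to 6.79%). Ccl3 was called lower than in microglia (adjusted p = 4.1e-11, edgeR), with a fitted value of -5.26 ± 0.55 that ranged from -4.78 in DESeq2 to -11.60 without that library, where macrophages had 0 UMIs. Ccl4 was lower by 4.36 on the log2 scale (-4.36 ± 0.42, adjusted p = 2.7e-12, edgeR). Of 8 members tested, these and Cxcl10 were lower and 0 higher, where 6.94% of 10075 genes were called lower and 4.89% higher. Cxcl10 had 1 UMI in macrophages (-3.56 ± 1.03, adjusted p = 0.014, edgeR), a call lost in DESeq2 (adjusted p = 0.21), without the library block (adjusted p = 0.41, edgeR), and without Rag1-/- gray matter library 1 or white matter library 2 (adjusted p = 0.12 and 0.13, edgeR). Cxcl13 had 0, 0, 15, 1 and 9 UMIs in macrophages, 14 of the 15 in 1 cell. In the 3 Rag1-/- white matter libraries its level was 124, 13.2 and 119 CPM, beside 67.1, 25.5 and 74.0 CPM in microglia. Ccl2 had 1 or 2 UMIs in macrophages of each library, which came to 5.92 to 26.5 CPM, above microglia in 3 of the 5 libraries. The macrophage sums carried 2926 to 5284 CPM of microglia markers beside 4846 to 14992 CPM of their own, and the part of this in Ccl12 and Cxcl16 was not tested.

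In astrocytes, a class of 6 to 647 cells, single cells held most of the Ccl3 or Ccl4 UMIs of some libraries. In Rag1-/- white matter library 2, 236 of 237 Ccl4 UMIs and 112 of 116 Ccl3 UMIs of astrocytes lay in 1 cell, and in library 1 40 of 55 Ccl4 UMIs did. In Rag1-/- white matter library 3, 59 of the 61 Ccl5 UMIs of astrocytes lay in 1 cell. Cxcl10 was 20.9 CPM in astrocytes of Rag1-/- white matter library 1, beside 20.4 CPM in microglia. Cxcl12 was 37.1 CPM in astrocytes of wild-type white matter library 2, the highest there among classes of at least 10 cells. No doublet caller was run. Neutrophils had Ccl3 at 211 CPM (31 UMIs, exact Poisson 95% interval 143 to 299 CPM) and Ccl4 at 346 CPM (51 UMIs, 258 to 456 CPM) in wild-type white matter library 1, and at 170 and 158 CPM in Rag1-/- white matter library 1. Microglia had 104 and 111 CPM of Ccl3 and Ccl4 in the wild-type library, below neutrophils. In the Rag1-/- library they had 298 and 369 CPM, above neutrophils. Both genes had 0 UMIs in the 12 neutrophils of wild-type white matter library 2. The intervals cover counting error alone.

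Cxcl12 was the one member with a vascular source. Endothelial cells had 4630 CPM in wild-type gray matter library 2 (211 UMIs), 4932 CPM in Rag1-/- gray matter (281 UMIs) and 5333 and 3567 CPM in Rag1-/- white matter libraries 2 and 3 (243 and 651 UMIs). They held 81.8%, 88.1%, 87.4% and 93.9% of the Cxcl12 UMIs of these libraries with 12, 18, 17 and 45 cells. The other 4 libraries had fewer than 10 endothelial cells, and their shares departed from this. The 5 endothelial cells of wild-type white matter library 2 held 73 of 130 UMIs (56.2%). The 2 of Rag1-/- white matter library 1 held 10 of 27 UMIs (37.0%). Wild-type gray and white matter library 1 had 0 endothelial cells, and oligodendrocytes held 56 of 56 and 41 of 43 UMIs there. The levels in gray and white matter overlapped, and with 1 wild-type library no genotype comparison was made. Mural cells, the pericytes and smooth muscle cells of vessels, had 192 CPM in Rag1-/- white matter library 3 (10 UMIs, exact Poisson 95% interval 92.1 to 353 CPM).

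Oligodendrocytes had few UMIs of any member, although over all libraries, if not in Rag1-/- gray and white matter library 1, they were the most numerous class. Over 15604 cells they held 11 UMIs of Ccl2, 110 of Ccl3, 190 of Ccl4, 267 of Ccl5, 122 of Ccl12, 1 of Cxcl9, 18 of Cxcl10, 196 of Cxcl12, 27 of Cxcl13 and 139 of Cxcl16. Relative to the CPM of microglia in the same library, oligodendrocytes were at 0% to 2.77% for Ccl3, 0% to 1.06% for Ccl4, 0.119% to 0.736% for Ccl12 and 0.132% to 2.58% for Cxcl16. For Cxcl10 they were at 0.168% to 0.770% in 6 libraries and had 0 UMIs in both wild-type gray matter libraries. The summed microglia markers were at 0.429% to 1.64%. Ccl5, of which microglia were not the main source, was at 1.71% to 21.0% of the microglia level. No oligodendrocyte had more than 1 UMI of Ccl2, Ccl3, Cxcl9, Cxcl10 or Cxcl13, 2 of Cxcl16, 3 of Ccl4 or Ccl12, 4 of Ccl5 or 6 of Cxcl12. In the 247 oligodendrocytes of the deposited interferon-responsive cluster, the interferon-induced Cxcl10 had 1 UMI and Cxcl9 0. That cluster had 12 UMIs of Ccl5, found in 2 of its 7 libraries, and 5 of Ccl4. Per UMI, with the libraries pooled, it was the highest of the 8 deposited clusters for Ccl5 (4.5 CPM, against 1.09 to 1.95 in the others), Ccl4 (1.87 against 0.560 to 1.73 CPM) and Cxcl10 (0.375 against 0 to 0.174 CPM), on these few UMIs and with no test. Ccl5 in all oligodendrocytes ranged from 0.318 to 15.4 CPM between libraries, so a pooled rank also depends on which libraries supplied each cluster.

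Cxcl12 and Ccl5 were the members of oligodendrocytes with most UMIs. Cxcl12 was 20.5 and 1.27 CPM in wild-type gray, 6.87 and 0.455 CPM in wild-type white, 0.731 CPM in Rag1-/- gray and 0.362, 0.743 and 0.737 CPM in Rag1-/- white matter. The first wild-type batch was higher than all other libraries in both tissues. Ccl5 was 2.92 and 0.318 CPM in wild-type gray and 15.4 and 2.21 CPM in wild-type white matter, and 0.836, 0.869, 0.325 and 0.663 CPM in the Rag1-/- libraries, and the highest of these was 0.230% of the level in T cells of its library. Of the 6 members tested in oligodendrocytes none was called in the 3 comparisons, where 0.742% of 13069 genes were higher and 0.26% lower between the wild-type tissues, 0.291% and 0.145% between the Rag1-/- tissues, and 0.689% and 0.199% between the genotypes in white matter (edgeR). At an unadjusted p under 0.05, 1251, 1260 and 1080 genes passed. The tissue effect differed between genotypes for none of the 13069 genes (0%), with 236 at an unadjusted p under 0.05 and 3 in DESeq2. With the batch as a block, Ccl5 (2.56, adjusted p = 0.00099, edgeR) and Ccl4 (3.16, adjusted p = 0.034, edgeR) were higher and Cxcl12 (-1.51, adjusted p = 0.020, edgeR) lower in wild-type white matter. In the same fit Ccl4 was higher in Rag1-/- white matter (adjusted p = 0.018, edgeR), and Ccl5 (-3.04, adjusted p = 1.5e-06, edgeR) and Cxcl12 (-1.71, adjusted p = 0.010, edgeR) were lower in Rag1-/- than in wild-type white matter. In these blocked fits, 4.43% of genes were higher and 3.58% lower between the wild-type tissues, 1.94% and 1.68% between the Rag1-/- tissues, and 4.28% and 4.37% between genotypes. Ccl5 had a main difference of -3.66 ± 0.88 there (adjusted p = 0.17, edgeR, and 0.025 without wild-type white matter library 2, where it was -4.53).

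Receptors of some of these ligands, chosen after their values were seen, were read by class. Cxcr6, the receptor of CXCL16, was 370 to 483 CPM in T cells and 293 to 442 CPM in NK cells. The highest level of Cxcr6 in a class of at least 10 cells was 956 CPM (150 UMIs), in the 28 cells of Rag1-/- white matter library 1 that passed the T-cell gate without Trac. Cxcr3, the receptor of CXCL9 and CXCL10, was 182 to 211 CPM in T cells and 121 to 171 CPM in NK cells. Ackr3, a scavenging receptor of CXCL12, was 461 CPM in mural cells of Rag1-/- white matter library 3 and 65.8 to 115 CPM in endothelial cells. It was not confined to vessels. Oligodendrocyte precursor cells had 82.3 CPM in wild-type white matter library 2, 64.3 CPM in Rag1-/- gray matter and 35.6 CPM in Rag1-/- white matter library 1.

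Other genes of the chemokine system were read from lists. Of 12 other chemokines tested in microglia, Cxcl14 (2.19 ± 0.36, adjusted p = 0.013, edgeR) was higher and Pf4 (-2.01 ± 0.36) and Ccl24 (-2.84 ± 0.59) were lower in wild-type white matter (adjusted p = 0.017 and 0.031, edgeR), and 9 were not called. In Rag1-/- mice Cxcl14 alone was called higher (2.27 ± 0.41, adjusted p = 0.044, edgeR). Pf4 and Ccl24 were higher in macrophages than in microglia by 7.23 and 3.49 on the log2 scale, and Ccl8 by 8.73 (adjusted p at most 1.5e-09, edgeR), while Ccl6 was lower (-1.32 ± 0.27, adjusted p = 0.00017, edgeR). Macrophage markers in microglia were 89.2 and 89.3 CPM in gray and white matter of wild-type batch 1, and 243 and 105 CPM in batch 2, and their part in the levels of Pf4 and Ccl24 was not tested. Of 12 receptors, Cxcr4, which binds CXCL12, was higher in wild-type white matter microglia (3.43 ± 0.63, adjusted p = 0.020, edgeR) while none was called in Rag1-/- mice. Between macrophages and microglia, the receptors Ccr1 (4.95 ± 0.29), Ccr2 (1.83 ± 0.56) and Cxcr4 (2.28 ± 0.73) were higher and Cx3cr1 (-1.89 ± 0.17) lower in macrophages (adjusted p at most 0.029, edgeR). Cx3cr1 is one of the microglia markers of the gate and Ccr2 one of its monocyte markers. The classes were thus drawn with these 2 genes among others.

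Among 17 inducing cytokines and regulators, Il1b (2.98 ± 0.46), Bcl3 (2.55 ± 0.38), Irf7 (1.77 ± 0.42) and Relb (1.11 ± 0.26) were higher and Il6 lower (-1.84 ± 0.30) in wild-type white matter microglia (adjusted p = 0.0086 to 0.046, edgeR). In Rag1-/- mice Bcl3 (2.63 ± 0.42) rose and Il6 (-1.36 ± 0.25) fell (adjusted p = 0.026 and 0.043, edgeR). Il1b encodes a pro-inflammatory cytokine, and Bcl3 and Relb encode proteins of the NF-kappa B system. Of 18 early-response genes, Egr1 (3.85 ± 0.62), Atf3 (1.89 ± 0.32) and Klf2 (3.17 ± 0.72) were higher in wild-type white matter microglia, and Egr1 (3.28 ± 0.57) and Atf3 (2.32 ± 0.37) in Rag1-/- white matter microglia (adjusted p = 0.012 to 0.040, edgeR). These genes moved with Ccl3 and Ccl4 while the summed list overlapped between tissues, and their part in the result was not tested. No gene of the 4 lists was called between genotypes in white matter microglia. In oligodendrocytes, where no member passed, Bcl3 (4.04 ± 0.45), Irf9 (1.76 ± 0.23), Fos (6.65 ± 0.79) and Junb (3.08 ± 0.32) were higher in wild-type white matter and Bcl3 (3.55 ± 0.57) and Junb (3.57 ± 0.42) in Rag1-/- white matter (adjusted p = 0.0069 to 0.040, edgeR). Irf7 (-2.50 ± 0.46) and Nr4a1 (-0.74 ± 0.11) were lower in Rag1-/- than in wild-type white matter oligodendrocytes (adjusted p = 0.049 and 0.015, edgeR). No other chemokine and no receptor was called in oligodendrocytes.

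Over 59 sums by class and library, the genes most like each member in log2(CPM + 1) were sought among 15200 genes. The sums share libraries and cell types, so the Pearson correlations are descriptions. Ccl3 and Ccl4 were most like each other (r = 0.85), followed for Ccl3 by Cst7 (0.80) and Pdcd1 (0.74) and for Ccl4 by Bcl2a1d (0.80) and Cst7 (0.77). Ccl2 was most like Ccl12 (0.85), Plxna4os1 (0.85) and Cd180 (0.84), and Ccl12 most like Lilra5 (0.94), Asb10 (0.92) and Serpinf1 (0.90). Cxcl16 was most like C3ar1 (0.91), a complement receptor gene, Fblim1 (0.91) and Blnk (0.90). Ccl5 was most like Klrd1 (0.90), Klrk1 (0.89) and Xcl1 (0.89), of which Klrd1 and Klrk1 encode NK receptors and Xcl1 a lymphocyte chemokine. Cxcl12 was most like Tek (0.93), Tmem252 (0.93) and Sox18 (0.93), of which Tek and Sox18 are endothelial genes. Cxcl13 was most like Gm26714 (0.78), Ccl2 (0.77) and Asgr2 (0.76). The correlations were lowest for Cxcl9 (Gm47079, 0.71, Vmn1r9, 0.67, and Stra6l, 0.66) and Cxcl10 (5330426L24Rik, 0.69, Phf11a, 0.69, and Ly6k, 0.66).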

How the data were processed

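Droplet-based single-cell RNA-seq counts of 8 libraries were analysed. The deposited values are UMI counts per gene and cell, which the authors made with Cell Ranger (the submitters' processing notes name Cell Ranger 4 and the mm10 build, whereas the study's methods give a different version for the wild-type libraries and for each of the 2 batches of Rag1-/- libraries) and filtered by genes, UMIs and mitochondrial share without normalizing them, with limits that differed between experiments. The authors' tables of all cell types (8726 wild-type cells with 18242 genes and 20905 Rag1-/- cells with 18886 genes), their oligodendrocyte table (15604 cells, 20354 genes) and their names of Rag1-/- microglia were used. In the table of names, 8171 cells belong to libraries that were not used in any step. Of the 7421 named microglia, 7328 passed the marker gate.

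The 10 members, the marker lists, the 4 gene lists and the tests were chosen with earlier results of these data known. UMI counts were summed per class and library, so that libraries are the replicates, and fitted over the genes of both tables with edgeR 4.0.16 (limma 3.58.1, R 4.3.3): filterByExpr, TMM, 4 groups of tissue and genotype, and the two-sided quasi-likelihood test with Benjamini-Hochberg adjustment over all genes, calling genes at 0.05. Standard errors are of the log2 fold change. P-values measure the spread between libraries of pooled or single mice. Macrophages and microglia were compared with the library as a block. The scripts were tested on simulated data. Sums, levels and figures were made in Python 3.11.15 with numpy 2.4.6, scipy 1.17.1, pandas 2.3.3 and matplotlib 3.10.9. Labels give gray and white matter libraries of wild-type mice a shared batch number. After the group means were removed, the libraries of a wild-type batch correlated at r = 0.23 in microglia and 0.35 in oligodendrocytes, across genes, and the batch was a block in an alternative. That block was fitted separately within each genotype, so equal batch numbers of wild-type and Rag1-/- libraries were not treated as a pair. Other alternatives were size factors of DESeq2 in the edgeR fit, no filter, DESeq2 1.42.0, gates of 2 or 4 markers, deposited names in place of the gate, each library left out in turn, and, added after the data were seen, the top cell of each member left out. Genes named are the members in every class and contrast, called genes of the lists, and the 3 genes most correlated with each member. Regulators and early-response genes called between macrophages and microglia are not named. Receptor levels by class and the T-cell genes of 28 cells were chosen after their values were seen. Positions are from the annotation of GRCm38 and promoters from RefSeq. Results for 1 gene of the receptor list are not reported here.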

Additional observations from a re-analysis of the deposited data

How the results depend on the processing

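Over 31 member results and 423 alternatives, 376 kept their direction and their side of the threshold, 20 were no longer called, 27 were newly called and 0 turned their direction. The cause of these changes was not tested. In microglia, the 6 members called between wild-type tissues were 2 to 7 with libraries left out. The 3 called between Rag1-/- tissues were 5 with no filter on low counts. The 1 called between genotypes in white matter was 2 with no filter, with DESeq2 and with the batch as a replicate block, and 0 to 2 with libraries left out. For the difference of the tissue effects, where 0 members were called, no filter and DESeq2 called 1 each. In oligodendrocytes, where 0 members were called, the batch block gave 3 between the wild-type tissues, 1 between the Rag1-/- tissues and 2 between genotypes, where no filter and DESeq2 each gave 1 and leaving out libraries 0 to 1. The block changed no other call of a member than those given in the report. Counts over all genes moved more. In microglia, the 653 genes called between wild-type tissues were 1094 with the block and 48 to 771 with libraries left out. The 105 between Rag1-/- tissues were 316 with DESeq2, 168 with the block, 170 with the deposited names, 194 with no filter and 56 to 261 with libraries left out. The 96 between genotypes were 164 with DESeq2, 160 with the block and 152 with no filter. In oligodendrocytes, the 131 genes between wild-type tissues were 1047 with the block, 281 with DESeq2 and 0 to 140 with libraries left out. The 57 between Rag1-/- tissues were 473 with the block, 208 with DESeq2, 138 with no filter and 15 to 251 with libraries left out, and the 116 between genotypes were 1131 with the block and 195 with DESeq2. Without the Rag1-/- gray matter library, the Rag1-/- tissue comparison and the difference of tissue effects give no value. Low counts limit Ccl2, Cxcl9 and Cxcl13 in gray matter microglia, Cxcl10 in those of wild-type mice, and all members in oligodendrocytes.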
